A study of Arabidopsis thaliana with 12 samples.

Results

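The sucrose transporter family of Arabidopsis thaliana comprises 9 genes named SUC or SUT, taken here by TAIR10 locus identifier out of 27444 protein-coding genes on the nuclear chromosomes. The members are SUC1 (AT1G71880), SUC2 (AT1G22710), SUC3 (AT2G02860, annotated as SUT2), SUT4 (AT1G09960), SUC5 (AT1G71890), SUC6 (AT5G43610), SUC7 (AT1G66570), SUC8 (AT2G14670) and SUC9 (AT5G06170). The family was singled out because SUT4 was among the genes that had the strongest wild-type peaks and no peak in the mutant. The values of SUT4 in that contrast are therefore a description, and no test was made on them or on the family as a whole.

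Sucrose transporters of this family carry sucrose across a membrane together with protons. In Arabidopsis, SUC2 in the companion cells loads sucrose into the phloem, other members work in pollen, seeds, flowers or sink tissues, and SUT4 exports sucrose from the vacuole. Trimethylation of lysine 27 of histone H3 (H3K27me3) is laid down by the Polycomb repressive complex PRC2 and marks repressed genes. The repressors VAL1 and VAL2 carry a B3 domain that binds the RY element, whose core is TGCATG or, on the other strand, CATGCA.

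Chromatin immunoprecipitation followed by sequencing was carried out on 14-day-old Col-0 seedlings, grown at 22 °C under 16 h of light and 8 h of dark after 3 days of stratification at 4 °C, on medium with 1% sucrose. H3K27me3 was precipitated from wild type and from the val1val2 double mutant, and GFP from VAL1-GFP in the val1 background and VAL2-GFP in the val2 background. Each of the 4 groups had 2 samples, and 7 peak lists were used, 2 for each group except VAL2-GFP with 1. Neither the second VAL2-GFP list nor the series' RNA-seq was analysed here, and the 4 input samples were not compared. The labels give neither the mutant alleles nor the promoters of the GFP fusions, and peak lists cannot check a genotype. The material was whole seedlings, so fewer cells carrying a mark and less mark per cell cannot be told apart. Whether replicates were separate plants is not in the labels, and their spread may be technical.

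H3K27me3 peaks numbered 8324 and 8325 in the wild-type lists and 9925 and 10024 in the val1val2 lists. The lists hold no read totals, which leaves the depth unknown. The VAL1-GFP lists held 21580 and 34554 summits and the VAL2-GFP list 30493. These lists reach down to weak peaks, and a q of 0.01 or less was reached by 29.7% and 52.0% of the VAL1-GFP summits and by 54.4% of the VAL2-GFP summits. The median pileup, the fragment coverage that the authors' lists give for a peak, was 73.1 and 79.4 for wild type but 66.1 and 68.3 for val1val2.

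The RY cores next to VAL summits at SUT4, SUC5 and SUC3 are shown first, because these 3 genes held the members' summits of VAL1 that lay within 100 bp of an RY core. Shown for SUT4 are the cores under its H3K27me3 peak and the upstream core with a VAL1 summit within 100 bp in both lists. At that upstream core the summit of replicate 1 was weak. The other cores of SUT4 are given by position only. They lie 867 bp upstream, in intron 4 at 2376 bp past the start, and 923, 925 and 1978 bp past the gene end. Each run has 30 bases, is written 5′ to 3′ on the strand of its gene from the RefSeq genome TAIR10.1, and has the RY core in capitals. The sites lie at chr1:3243560-3243589 (upstream of SUT4), chr1:3244873-3244902 (intron 1 of SUT4), chr1:3245277-3245306 (coding exon 2 of SUT4), chr1:27058299-27058328 (upstream of SUC5) and chr2:833812-833841 (upstream of SUC3, minus strand; the other 4 are on the plus strand).
SUT4 upstream: tataacctgaatCATGCAgcacgtgtacgg
SUT4 intron 1: attatacactcaCATGCAaaacatgaaaat
SUT4 exon 2: tacgaagacagtTGCATGtaatgtggaatg
SUC5 upstream: tcctcacattgtCATGCActcacacaaatg
SUC3 upstream: atacatcatacaTGCATGcacaccataaca

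A gene was called marked in a library when H3K27me3 peaks covered at least 20% of it from start to end, and marked in a genotype when this held in both libraries. In wild type 8 of the 9 members were marked, against 25.6% of all genes, and in val1val2 7 were marked, against 30.4%. A gene was called lost when it was marked in wild type and no val1val2 library had it marked. SUT4 was the 1 member called lost, against 2.03% of all genes and 7.92% of the genes marked in wild type, and since SUT4 was chosen from this contrast its count is a description. No member was called gained, the reverse call, which held for 6.42% of all genes. SUC3 was the member without a mark in either genotype. The median cover of the 8 members marked in wild type was 58.7% in wild type and 75.0% in val1val2, while that of all 7023 genes marked in wild type was 86.3% and 86.9%. Of the 9 members, 3 had higher cover in both val1val2 libraries than in either wild-type library (SUC1, SUC2 and SUC8) and 3 had lower cover (SUT4, SUC5 and SUC9), against 29.1% higher and 29.4% lower among all genes marked in wild type. The smallest two-sided p of an exact permutation test on 2 samples a side is 0.333, so differences are read against the spread between replicates and no p is given.

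**Figure D1:**
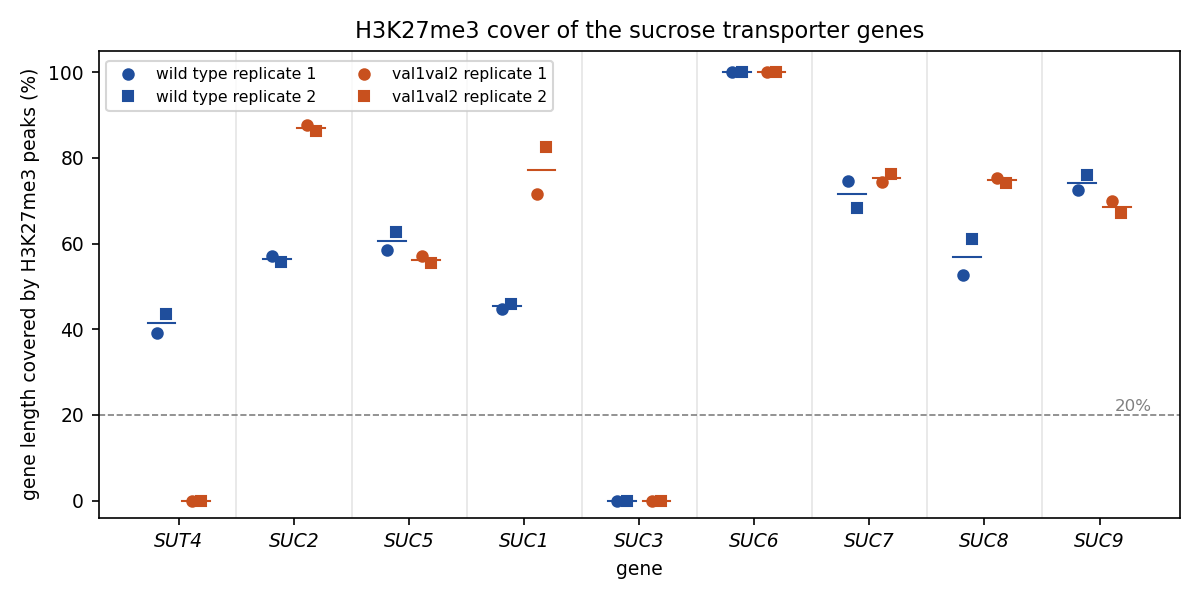
Share of each gene covered by H3K27me3 peaks (percent of gene length, y axis) for the 9 members (x axis) in the 2 wild-type and 2 val1val2 libraries (points) with the mean of each genotype (short lines); the dashed line marks the 20% that counts as marked. SUT4 lies at 39.2% and 43.6% in wild type and at 0 in val1val2, SUC1 and SUC2 lie higher in val1val2 without overlap, and SUC3 is at 0 throughout.

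SUT4 encodes the vacuolar sucrose exporter and lies on the plus strand of chromosome 1 at 3243986 to 3247216 in TAIR10, with 6 exons. Its H3K27me3 cover was 39.2% and 43.6% in wild type and 0 in both mutant libraries, so the wild-type mean of 41.4% ± 3.13 (SD, n = 2) stood against 0. The wild-type peak ran from 157 to 1421 bp past the start in replicate 1 and from 116 to 1523 bp in replicate 2, over 1265 and 1408 bp. It therefore began inside exon 1 and ended well short of the gene's 3′ end, 1809 and 1707 bp before it. The fold enrichment of this peak over the local background, as the authors' lists give it, was 4.94 and 4.65, with a pileup of 114.77 and 114.59. It ranked 78 of 8324 and 113 of 8325 peaks by fold enrichment, and 7 and 8 among the 556 lost genes. In val1val2 no peak lay within 2000 bp of the gene on either side. The call of loss does not hold where at least 50% cover is asked for, nor over the gene with 2000 bp to each side, because the wild-type peak covers less than that. Peak lists show that no region there passed the authors' threshold, not that the signal was 0.

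VAL1 and VAL2 summits lay on the body of SUT4 as well as before it. The strongest VAL1 summit within the gene was 347 bp past the start in replicate 1 (fold enrichment 2.91) and 296 bp past it in replicate 2 (4.89), both in coding exon 1 and both inside the stretch that the wild-type H3K27me3 peak covered. Higher fold enrichment was found at 6.56% and 4.44% of all summits of the 2 lists. The strongest VAL2 summit of the gene lay 42 bp past the start in the 5′ UTR, at a fold enrichment of 2.83. None of these 3 summits had an RY core within 100 bp, and for VAL1 the nearest core was 552 and 603 bp away. Weaker VAL1 summits lay closer to a core. In replicates 1 and 2 a summit lay 17 and 58 bp from the upstream core at 414 bp before the start (fold enrichment 1.41 and 2.50). Another lay 17 and 11 bp from the exon 2 core (1.44 and 1.68). Higher fold enrichment was found at 88.8% and 30.9% of all summits for the first, and at 85.4% and 86.6% for the second. The −log10 q was 0.265 and 3.56 at the upstream core, and 0.272 and 0.754 at the exon 2 core. The intron 1 core coincided with a summit of replicate 2 (3.03), and the nearest summit of replicate 1 was 182 bp away. A further core, 867 bp upstream, lay 55 bp from a summit of replicate 2 (1.73) and 470 bp from the nearest of replicate 1. The intron 1 and exon 2 cores lay within the wild-type H3K27me3 peak in both libraries, and the upstream core lay outside it. SUT4 held 5 RY cores between 1000 bp upstream and its end, the highest count of the 9 members. Past the 3′ end, VAL2 had its strongest summits of the region, 852 and 1992 bp beyond the gene (fold enrichment 3.87 and 4.14), each within 100 bp of an RY core and without an H3K27me3 peak in any of the 4 lists. VAL1 had summits near the same cores in both replicates, 866 and 863 bp beyond the gene (2.04 and 2.73) and 1959 and 1954 bp beyond it (1.97 and 2.67).

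**Figure D2:**
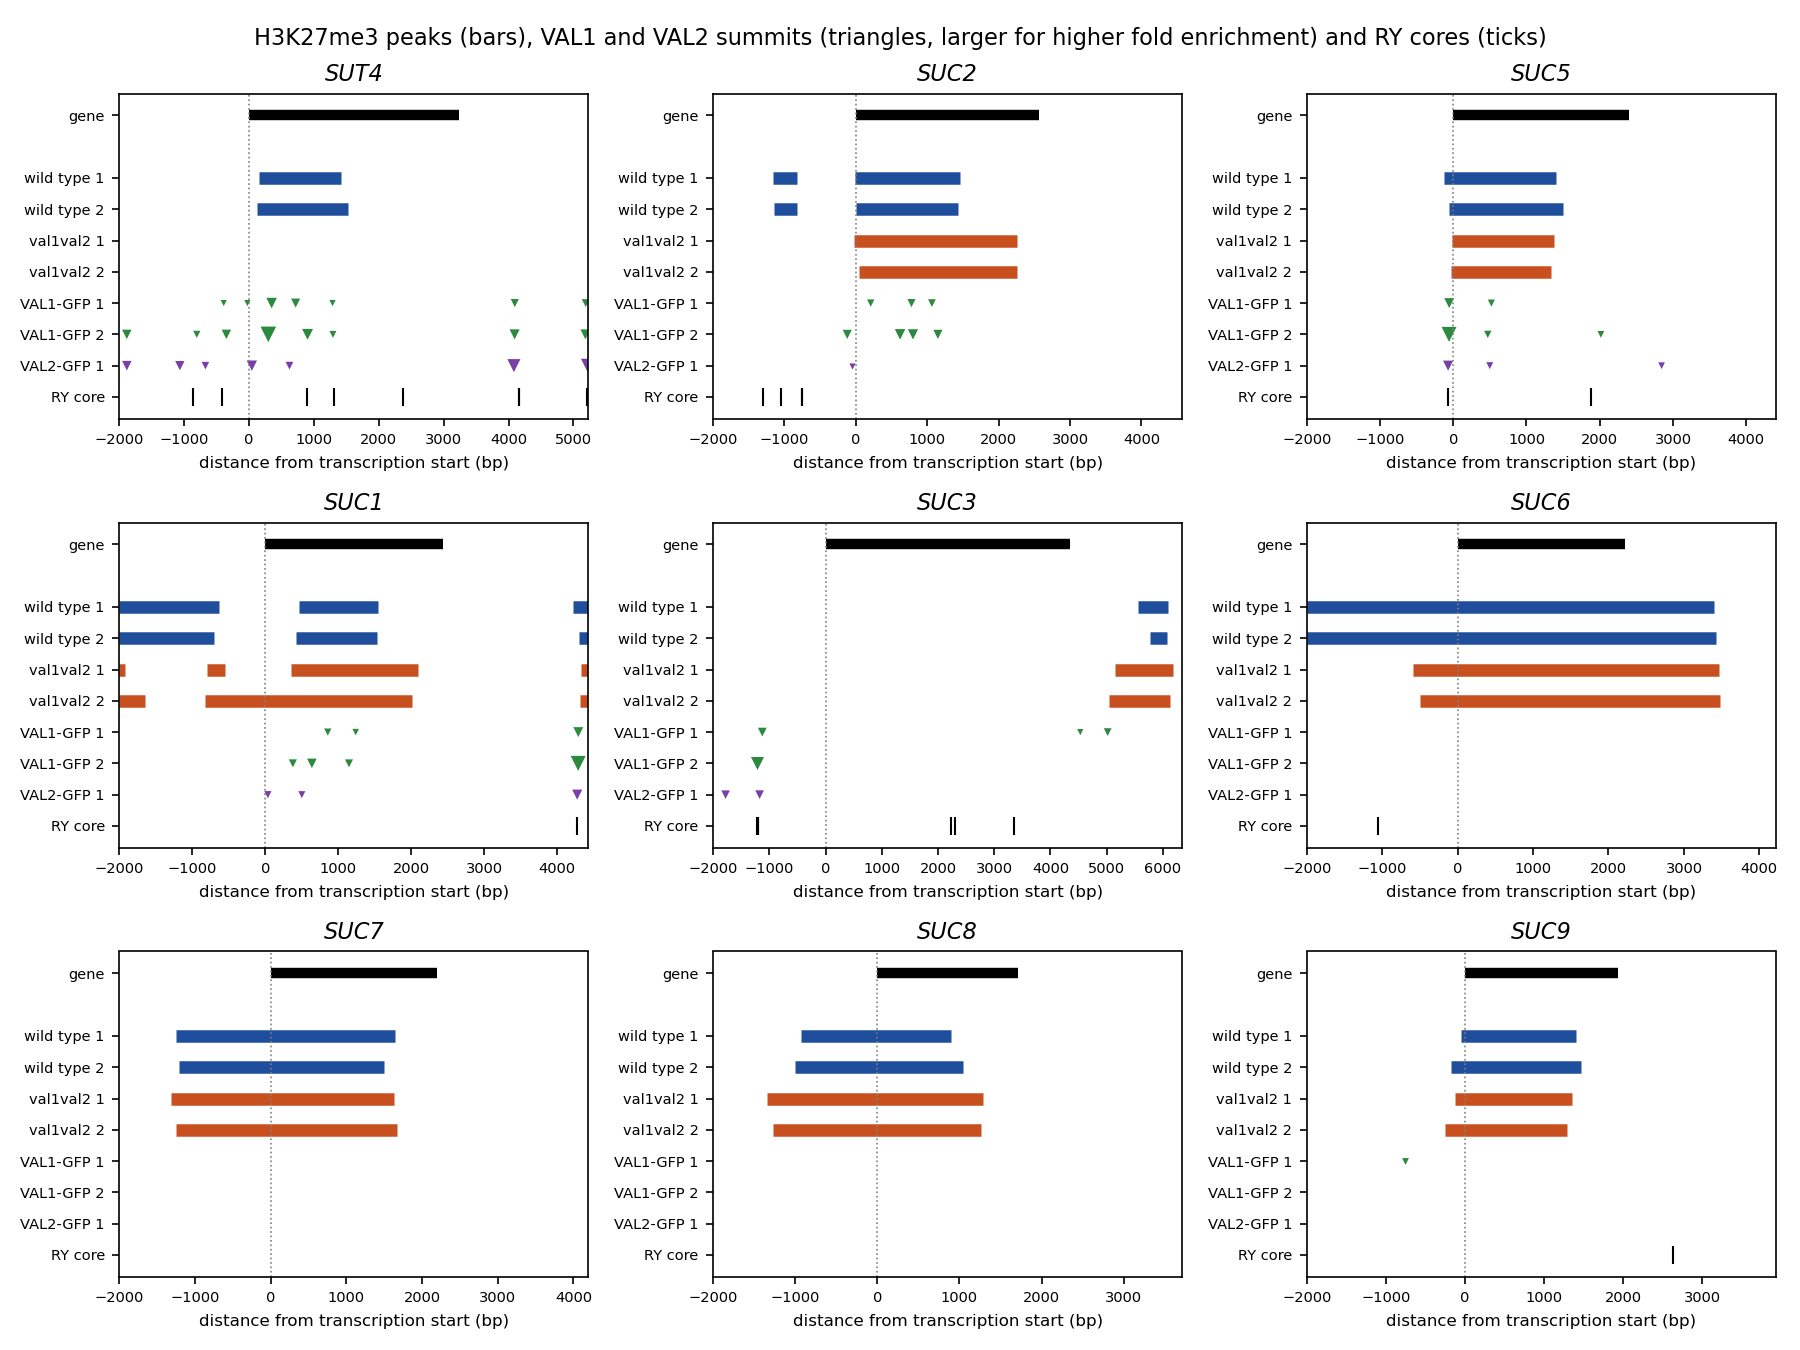
Positions of H3K27me3 peaks in each wild-type and val1val2 library (bars), VAL1-GFP and VAL2-GFP summits (triangles, larger for higher fold enrichment) and RY cores (ticks) for the 9 members, as distance from the transcription start in bp (x axis) out to 2000 bp on each side of the gene (black bar). SUT4 has bars in wild type only, the SUC2 bar reaches further towards the 3′ end in val1val2, and SUC6, SUC7 and SUC8 have no summit. For SUC8 and SUC9, annotated as partial and without UTRs, the start is that of the coding sequence.

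SUC2, the phloem loader of companion cells, lies on the minus strand of chromosome 1 at 8030587 to 8033156. Its H3K27me3 peak was longer and had a lower fold enrichment in val1val2. Cover was 57.0% and 55.7% in wild type against 87.7% and 86.2% in val1val2, so the means were 56.4% ± 0.908 and 86.9% ± 1.07 (SD, n = 2 each) and the groups did not overlap. The peak measured 1474 and 1434 bp in wild type and 2278 and 2215 bp in val1val2. Its 5′ edge stayed within 42 bp of the start in all 4 lists, while its 3′ edge moved from 1464 and 1431 bp past the start to 2253 and 2256 bp. Fold enrichment was 4.07 and 4.10 in the wild-type libraries and 2.75 and 2.79 in val1val2, and pileup was 84.35 and 94.54 against 57.82 and 61.24. A longer peak can have a lower mean, and how much of the lower fold enrichment the added length accounts for was not tested. A second, weak wild-type peak of 327 and 317 bp began 1154 and 1145 bp upstream (fold enrichment 1.69 and 1.65), and no peak was listed there in val1val2. Over the gene with 2000 bp to each side, the difference in cover, wild type minus val1val2, was -7.16 percentage points, against -30.58 over the gene.

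The VAL1 summits of SUC2 lay in coding exon 1, at 208, 779 and 1065 bp past the start in replicate 1 (fold enrichment 1.79, 2.05 and 1.91) and at 619, 800 and 1149 bp in replicate 2 (2.90, 2.80 and 2.41). Replicate 2 had another summit 121 bp upstream (2.39). VAL2 had a single summit 52 bp upstream, with a fold enrichment of 1.41 and a −log10 q of 0.346, which is weaker than 98.0% of its list by fold enrichment. None of these summits had an RY core within 100 bp. The nearest cores, 2 overlapping ones at 759 and 761 bp upstream, were 633 bp or more from every summit.

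SUC1, known from pollen and roots, and SUC5, known from the endosperm, lie in tandem on the plus strand of chromosome 1, at 27054030 to 27056464 and 27058381 to 27060786, with 1916 bp between them. Their coding sequences are 83.53% identical. They carried separate H3K27me3 peaks in all 4 lists, and the neighbours differed in how those peaks changed.

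The SUC1 peak lengthened in val1val2 while its fold enrichment overlapped between genotypes. Cover was 44.6% and 46.0% in wild type against 71.6% and 82.6% in val1val2, with means of 45.3% ± 0.958 and 77.1% ± 7.81 (SD, n = 2 each), a difference larger than either spread. Wild type minus val1val2 was -31.79 percentage points over the gene, but -1.91 with 2000 bp to each side, where the shorter upstream peak of val1val2 also counts. The peak over the gene measured 1087 and 1120 bp in wild type and 1743 bp in val1val2 replicate 1. In val1val2 replicate 2 it measured 2843 bp and had joined with sequence up to 831 bp upstream, where replicate 1 had a separate peak of 248 bp. Fold enrichment was 1.97 and 1.74 in the wild-type libraries and 1.91 and 1.82 in val1val2. Pileup was 108.38 and 102.28 in wild type against 136.06 and 131.55 in val1val2, and the background implied by pileup over fold enrichment was 55.1 and 58.9 against 71.2 and 72.4. Pileup and implied background were thus both higher in val1val2, without overlap. Upstream of the gene, a weak wild-type peak of 3353 and 2927 bp ended at -627 and -698 bp from the start. It thus overlapped the 248 bp peak of val1val2 replicate 1 and the upstream part of the joined peak of replicate 2. In val1val2 the weak upstream peak measured 1469 and 1737 bp and ended at -1926 and -1646 bp. VAL1 summits over SUC1 were weak, with fold enrichments from 1.51 to 2.55, the 2 VAL2 summits had 1.73 and 1.69, and no RY core lay between 1000 bp upstream and the end of the gene.

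The SUC5 peak kept its place. Cover was 58.4% and 62.6% in the wild-type libraries and 57.1% and 55.4% in val1val2, with means of 60.5% ± 2.97 and 56.3% ± 1.15 (SD, n = 2 each), so the groups did not overlap but lay 4.24 percentage points apart. Fold enrichment was 3.31 and 3.23 in wild type against 2.51 and 2.56 in val1val2. Pileup, however, was 132.47 and 134.5 against 125.51 and 135.31 and overlapped, while the implied background was 40.0 and 41.6 against 49.9 and 52.8. At SUC5 the fold enrichment and the implied background thus separated the genotypes, and the pileup did not.

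SUC5 was the member called bound at which the strongest summits of both factors lay next to an RY core. The RY core 70 bp upstream of the start was 10 and 8 bp from the VAL1 summits (fold enrichment 2.66 and 4.62) and at the VAL2 summit itself (2.73). Higher fold enrichment was found at 8.49% and 5.28% of the VAL1 summits and at 17.2% of the VAL2 summits. The core lay in the H3K27me3 peak of 1 of the 4 libraries, wild-type replicate 1, since the peaks began between 127 and 12 bp upstream. Over the whole lists 31.3% and 24.7% of VAL1 summits and 18.5% of VAL2 summits had an RY core within 100 bp. SUC5 retained its H3K27me3 mark in val1val2, although it had summits of both factors at a core close to its start.

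**Figure D3:**
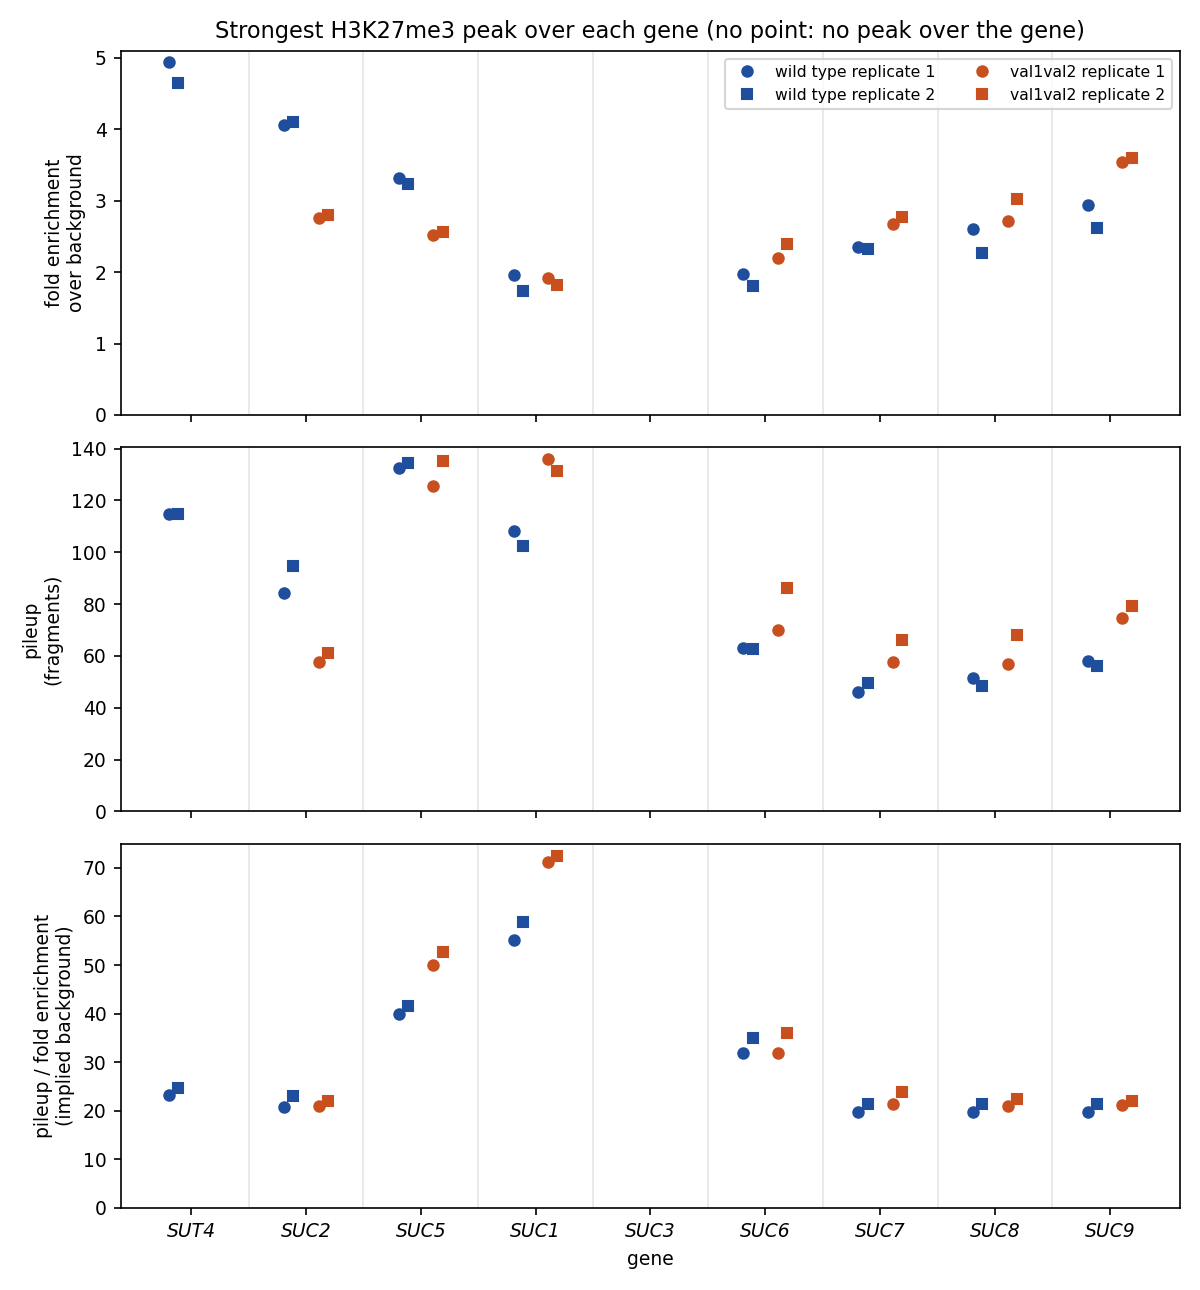
Fold enrichment over background (top), pileup in fragments (middle) and pileup divided by fold enrichment, the implied background (bottom), for the strongest H3K27me3 peak over each gene in each library; no point means no peak over the gene. For SUC5 the fold enrichment is lower in val1val2 while pileup overlaps, and for SUC6, SUC7, SUC8 and SUC9 both fold enrichment and pileup are higher in val1val2.

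SUC3, a low-affinity transporter of sink tissues, lies on the minus strand of chromosome 2 at 828279 to 832619 and had 0 cover in all 4 lists. The nearest H3K27me3 peak lay past its 3′ end over the neighbouring gene ARPN, whose cover was 31.1% and 18.0% in the wild-type libraries and 60.7% and 64.9% in val1val2. SUC3 had summits of both factors just beyond the 1000 bp that counted as bound. VAL1 summits lay 1125 and 1215 bp upstream (fold enrichment 2.26 and 3.82) and a VAL2 summit 1173 bp upstream (2.23). They lay 78, 3 and 30 bp from a cluster of 3 overlapping RY cores between 1208 and 1212 bp upstream. SUC3 thus had VAL summits at RY cores and no listed H3K27me3 peak over the gene in either genotype.

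SUC6, SUC7, SUC8 and SUC9 form a group of close relatives, of which SUC9 is a high-affinity transporter, SUC8 is expressed in flowers, and SUC6 and SUC7 have been described as encoding aberrant proteins. Their coding sequences are 89.21% to 93.77% identical, against 54.37% to 56.83% between SUT4 and the other members. A stretch of 60 coding bases from RefSeq TAIR10.1 shows how much sequence these 4 genes share, which bears on how reads can be placed. The runs are written 5′ to 3′ on the coding strand, capitals mark a base at a position where the other 3 genes share another base, and 10 of the 60 positions differ between any of the 4. They lie at chr5:17519159-17519218 (plus strand), chr1:24837106-24837165 (minus), chr2:6276178-6276237 (minus) and chr5:1869871-1869930 (plus).
SUC6: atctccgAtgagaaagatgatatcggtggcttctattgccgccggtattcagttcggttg
SUC7: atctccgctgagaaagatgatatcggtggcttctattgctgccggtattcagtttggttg
SUC8: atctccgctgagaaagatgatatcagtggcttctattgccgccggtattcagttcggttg
SUC9: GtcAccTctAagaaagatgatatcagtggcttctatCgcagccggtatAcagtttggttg

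Over the whole genes, the share of 50-base words found once in the genome was 93.78% for SUC6, 95.25% for SUC7, 85.81% for SUC8 and 99.15% for SUC9, and 100% for the other 5 members. At 100 bases it was at least 99.13% for all 9. The sources used here give neither the read length nor the treatment of reads with several matches, so part of the signal of SUC6, SUC7 and SUC8 may be shared and the values of these 3 genes are uncertain to that extent.

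All 4 close relatives were marked in both genotypes and had higher fold enrichment in val1val2. SUC9 had a fold enrichment of 2.94 and 2.61 in wild type against 3.54 and 3.60 in val1val2, means of 2.77 ± 0.228 and 3.57 ± 0.0445 (SD, n = 2 each). SUC8 had 2.60 and 2.27 in the wild-type libraries and 2.72 and 3.03 in val1val2, and SUC7 had 2.35 and 2.33 against 2.68 and 2.77. SUC6 had 1.98 and 1.80 against 2.20 and 2.39. The groups did not overlap at any of these 4 genes, and the pileup was also higher in both val1val2 libraries than in either wild-type library. At SUC9 the pileup was 58.08 and 55.97 in wild type against 74.65 and 79.28 in val1val2. The median pileup of all peaks was lower in val1val2, as given above, but the medians describe different sets of peaks. The val1val2 lists hold more peaks, with a median −log10 q of 5.94 and 6.04 against 6.76 and 7.16 in wild type. Pileup also depends on the depth of a library, which is unknown. With peaks at a −log10 q of at least 10 alone, SUC7 and SUC8, like SUC1, were called gained, since their wild-type peaks are weaker than that.

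The cover of the 4 genes moved in different directions. The genes SUC8 and SUC9 are annotated as partial and without UTRs, so their cover and distances are taken from the coding sequence. SUC8 had 52.7% and 61.0% in wild type against 75.4% and 74.1% in val1val2, without overlap. SUC9 had 72.5% and 75.9% in the wild-type libraries and 69.9% and 67.0% in val1val2. SUC7 overlapped between genotypes, with 74.7% and 68.3% against 74.3% and 76.2%. SUC6 was covered in full in all 4 lists, but its peak shortened from the 5′ side. It began 2601 and 2633 bp upstream in wild type and 592 and 498 bp upstream in val1val2, so its length went from 6000 and 6066 bp to 4060 and 3974 bp, while its 3′ edge stayed between 3398 and 3475 bp past the start. The wild-type peak reached the microRNA gene MIR166f, whose own cover was 100% in both wild-type libraries and 82.9% and 57.1% in val1val2. The val1val2 peak over SUC6 did not reach MIR166f, whose remaining cover there came from separate listed peaks.

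A gene was called bound by VAL1 when a summit lay between 1000 bp upstream and its end in both lists, and by VAL2 when this held in its single list. By this rule 4 members were bound by VAL1, against 38.2% of all genes, and 4 by VAL2, against 53.4%. These were SUC1, SUC2, SUT4 and SUC5 in both cases, so 4 of 9 members were bound by both factors, against 31% of all genes. SUC6, SUC7 and SUC8 had no summit of either factor within 2000 bp, and SUC9 had 1 weak summit, in VAL1 replicate 1 (761 bp upstream, fold enrichment 1.61). The calls of SUC1 for both factors and of SUC2 for VAL2 rest on weak summits. With summits at a −log10 q of at least 2, VAL1 bound 3 members, SUC2, SUT4 and SUC5. VAL2 then bound 2, SUT4 and SUC5. Of all 27444 genes, VAL1 bound 4249 and VAL2 9427 at that limit. At 10 or more no member was bound by either factor, against 910 genes for VAL1 and 1867 for VAL2.

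Among the 7 members with a peak over the gene in all 4 lists, 2 had lower fold enrichment in both val1val2 lists (SUC2 and SUC5), against 39.8% of the 6884 such genes. The 4 close relatives had higher fold enrichment, against 41.3%. By pileup, SUC2 alone was lower, SUC5 overlapped between genotypes, and SUC1 was higher besides the 4 close relatives. Both members with lower fold enrichment were bound by VAL1, where 43.9% of all bound genes with a peak in all 4 lists were lower, against 36.4% of those not bound. The 4 members with higher fold enrichment were not bound by VAL1, and of all such genes not bound 43.6% were higher. Of the 4 members that were marked in wild type and bound by VAL1, SUT4 was the 1 called lost, against 12.6% of all genes of that kind. None of the 4 marked members without VAL1 was lost, against 3.78%. With so few members, these counts describe the family and were not tested for a difference from other genes.

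An RY core lay between 1000 bp upstream and the gene end in 4 of the 9 members, SUC2, SUC3, SUT4 and SUC5, against 65.1% of all genes. In the window from 1000 bp upstream to 500 bp past the start, 3 members held one (SUC2, SUT4 and SUC5), against 40.1% of all genes and 70.0% of the genes called lost. In the same window and on both strands, the telobox letters AAACCCTA occurred in 1 member, SUC3, against 27.1% of all genes, and GAGAGAGA in 4 members, SUC1, SUC3, SUT4 and SUC7, against 35.5%. Matches may overlap each other, and they describe letters in a window, not binding.

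The genes most like SUT4 were sought by the highest fold enrichment from 1000 bp upstream to the gene end in the 7 lists, as the smallest sum of absolute differences on a log2(1 + fold enrichment) scale. The closest was TIM44-1 (AT2G20510), with a summed difference of 0.39. It had wild-type peaks of fold enrichment 4.82 and 4.79 and none in val1val2, but the peak lay in the 1000 bp upstream and the gene itself had 0 cover. AT1G17345 and AT1G17350 followed, both at 0.49, because they shared the same peak and summits. AT1G17345 was lost, with 85.7% and 81.2% cover in wild type and 0 in val1val2, and AT1G17350 had 0 cover in all 4 lists.

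Other genes of sugar transport and sucrose metabolism were taken as a list of 49, the SWEET sugar uniporters, the STP hexose transporters, sucrose synthases, cell wall and vacuolar invertases and sucrose phosphate synthases. All 49 matched the annotation. In wild type 28 were marked, against 25.6% of all genes, and in val1val2 32, against 30.4%. The median cover of all 49, unmarked genes included, was 38.9% in wild type and 35.0% in val1val2. SWEET5 (AT5G62850, annotated as AtVEX1) was the 1 gene of the list called lost, against 2.03% of all genes. Its cover was 65.6% and 64.4% in wild type and 0 in both val1val2 libraries, its wild-type peak had a fold enrichment of 2.35 and 2.37, and it was bound by both factors. The gained genes numbered 4, against 6.42% of all genes, each with 0 cover in both wild-type libraries. The hexose transporter gene STP3 (AT5G61520) reached 80.7% ± 0.655 in val1val2, the sucrose synthase genes SUS1 and SUS4 reached 54.0% ± 0.832 and 32.8% ± 5.48, and the vacuolar invertase gene AT1G12240 reached 39.9% ± 0.317 (SD, n = 2 each).

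The groups of this list differed in their wild-type mark. Of the 17 SWEET genes 14 were marked in wild type, of the 14 STP genes 7, of the 6 cell wall invertase genes 4, of the 6 sucrose synthase genes 2, and of the 4 sucrose phosphate synthase genes 0. VAL1 bound 35 of the 49, against 38.2% of all genes, and VAL2 29, against 53.4%. Of the 29 genes with a peak in all 4 lists, 10 had lower and 12 had higher fold enrichment in val1val2, against the shares of all such genes given above.

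**Figure D4:**
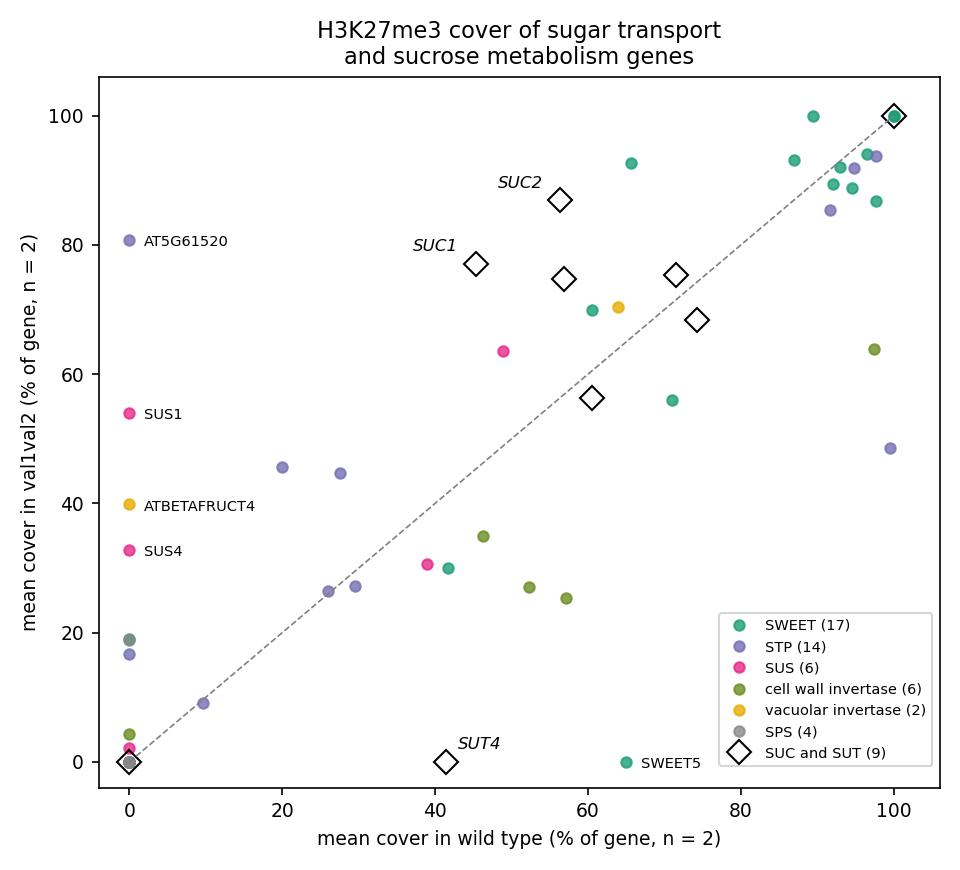
Mean H3K27me3 cover in wild type (x axis) against val1val2 (y axis), in percent of the gene over 2 libraries each, for the 49 sugar transport and metabolism genes (dots coloured by group, number of genes in brackets) and the 9 sucrose transporter genes (diamonds); the dashed line marks equal cover. SUT4 and SWEET5 lie on the lower edge with 0 in val1val2, and the 4 gained genes lie on the left edge with 0 in wild type.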

How the data were processed

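The authors called peaks on each sample with MACS2 against TAIR10, per the submitters' processing notes, which also name Cuffdiff, TopHat2 2.1.1 and Cufflinks 2.2.1 but not the data each served. The sources used here do not give the MACS2 version and options, the control or the aligner. Pileup, as deposited, is a signal of fragment coverage, and the deposited fold enrichment is a ratio to the local background. Both are the authors' values for whole peaks, whose widths differ between lists. The deposited significance columns hold −log10 p and −log10 q. Because a spreadsheet error had replaced their headers, they were read in MACS2 order, and q was never more significant than p (0 cases). Depth is unknown, so no interval that needs it is given.

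Peak starts, ends and summits, deposited as 1-based positions, were matched to the RefSeq TAIR10.1 annotation with Python 3.11.15 and pandas 2.3.3. Overlapping peaks were merged within a library. Cover, calls and windows are defined in the text where first used, and lower or higher means beyond both libraries of the other genotype. The matching was checked on simulated peaks with known answers. No test across genes was run, since peak lists hold no counts for each gene. The 9 members are all named, with neighbours within 2000 bp or under a shared peak that bear on a result. Each lost or gained gene of the sugar list and the 3 genes most like SUT4 are also named. Members and lists were chosen with earlier results of these data known.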

Additional observations from a re-analysis of the deposited data

How the results depend on the processing

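SUT4 stayed lost at a −log10 q of at least 2 or at least 10, with equal numbers of peaks and with any overlap. It also stayed lost without each H3K27me3 library in turn. None of these settings could undo the call. SUT4 was chosen for a strong wild-type peak (−log10 q 49.5 and 47.7) and no peak in val1val2. The call ended at 50% cover, where 0 members were lost and 1 was gained (SUC1). There 3 sugar genes were lost and 2 gained. It also ended over the gene with 2000 bp to each side, where 0 members, 1083 genes and 3 sugar genes were lost and the SUT4 difference in cover was 18.5 instead of 41.4 percentage points. With H3K27me3 peaks at a −log10 q of at least 10, 4 members were marked in wild type, 3 were gained (SUC1, SUC7 and SUC8), 1 had higher fold enrichment (SUC9), 903 genes were gained, and 5 sugar genes were lost and 2 gained. Any overlap gave 7 gained sugar genes. With pileup in place of fold enrichment, an alternative chosen after seeing the data, 1 member was lower in val1val2 (SUC2). VAL calls moved most. At a −log10 q of at least 2, 2 members were bound by VAL2, 4249 genes by VAL1 and 9427 by VAL2. At 10 or more, 0 members were bound by VAL1 and 0 by VAL2, against 910 and 1867 genes. VAL1 bound 16026 genes with 2000 bp to each side and 6576 from start to end only, where VAL2 bound 8492. Leaving out 1 VAL1 replicate gave 12049 (without replicate 2) to 17056 (without replicate 1) genes bound by VAL1, against 10473 with both. For the other 8 members, the settings that keep all libraries gave 32 cover differences (wild type minus val1val2). Of these, 22 stayed within the spread between replicates and 10 moved. A −log10 q of at least 2 and equal numbers of peaks left the differences of all 8 members unchanged. All 10 moves came from a −log10 q of at least 10 or from 2000 bp to each side. At a −log10 q of at least 10, SUC1 had -77.1, SUC6 -50.0, SUC7 -75.3 and SUC8 -74.7 percentage points. With 2000 bp to each side, SUC1 had -1.91, SUC2 -7.16, SUC3 -7.76, SUC6 22.5, SUC8 -11.2 and SUC9 0.58. No paired analysis was possible because no result comes from a fit that could hold a replicate block, and the labels do not say that equal replicate numbers share a batch. Weak peaks and unknown depth limit every absence of a peak.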
